A study of Mus musculus with 8 samples.

Results

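The enzymes that write, copy and remove cytosine methylation were followed in mouse embryonic stem cells (ESCs) through 9 genes chosen by name: Dnmt1, Dnmt3a, Dnmt3b, Dnmt3l, Uhrf1, Tet1, Tet2, Tet3 and Tdg. They are 9 of the 52550 genes listed in the count files, and all 9 passed the filter on low counts that left 20749 genes for testing. The study asked how loss of Dax1, an orphan nuclear receptor encoded by Nr0b1, acts in different pluripotency states. Control and Dax1KO cells, all at passage 3 on gelatin, were each grown in 2i/LIF and in LIF/serum, and each of the 4 groups gave 2 messenger RNA libraries. The 2i/LIF medium was N2B27 with the MEK inhibitor PD0325901 at 1 µM, the GSK3 inhibitor CHIR99021 at 3 µM and the cytokine LIF at 10 ng/ml. The LIF/serum medium held 15% fetal bovine serum and the same dose of LIF, without the inhibitors. Per the study's methods, the Dax1KO cells came from colonies picked after infection with a Cas9 lentivirus and selection with zeocin, and 1 such clone was carried into the later experiments. The study's text calls the comparator both control and wild-type ESCs, and nothing says that the 2 libraries of a group came from separate cultures. The P values then measure only the spread between these libraries.

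DNA methylation in mammals sits mostly on cytosines followed by guanine (CpG). Dnmt1 copies it onto the new strand after replication and is brought to hemimethylated sites by Uhrf1. Dnmt3a and Dnmt3b place new methylation, and Dnmt3l, which has no catalytic activity, stimulates both. Tet1, Tet2 and Tet3 oxidize 5-methylcytosine, and the glycosylase Tdg cuts out the most oxidized forms so that base excision repair can restore cytosine. Mouse ESCs in 2i/LIF are known for low genome-wide methylation and those in serum for high methylation. Methylation itself was not measured here, and all values below are messenger RNA counts.

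Promoter windows of 300 bases, from 250 before to 50 after an annotated start, were found in RefSeq (GRCm38.p6) for 9 of the 9 genes, with 16 windows in all. The windows below are shown because they belong to the genes with the clearest differences between media and between genotypes, and because their CpG content differs widely. Each is written 5′ to 3′ on the gene's strand, with every CpG in capitals.
Dnmt3b, chr2:153649199-153649498, plus strand: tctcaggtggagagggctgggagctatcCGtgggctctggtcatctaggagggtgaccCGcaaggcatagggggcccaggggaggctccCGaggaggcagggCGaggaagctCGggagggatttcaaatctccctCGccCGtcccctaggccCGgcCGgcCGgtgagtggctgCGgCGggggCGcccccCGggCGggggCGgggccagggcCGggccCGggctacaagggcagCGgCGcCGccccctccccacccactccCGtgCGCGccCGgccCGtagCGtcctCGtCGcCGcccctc
Dnmt3l, chr10:78042037-78042336, plus strand: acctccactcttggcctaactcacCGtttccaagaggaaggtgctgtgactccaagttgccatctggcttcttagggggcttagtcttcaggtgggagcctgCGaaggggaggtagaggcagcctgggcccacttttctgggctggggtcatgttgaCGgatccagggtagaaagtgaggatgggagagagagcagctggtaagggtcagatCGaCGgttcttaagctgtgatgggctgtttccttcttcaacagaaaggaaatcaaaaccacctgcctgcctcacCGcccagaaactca
Uhrf1, chr17:56304063-56304362, plus strand: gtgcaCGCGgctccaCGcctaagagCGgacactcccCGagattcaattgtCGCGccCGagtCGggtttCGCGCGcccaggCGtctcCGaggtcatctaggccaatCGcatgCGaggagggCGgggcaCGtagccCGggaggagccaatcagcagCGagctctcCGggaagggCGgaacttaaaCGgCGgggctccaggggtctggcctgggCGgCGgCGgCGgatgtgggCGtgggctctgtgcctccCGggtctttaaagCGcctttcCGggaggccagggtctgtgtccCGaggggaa
Dnmt1, chr9:20952574-20952873, minus strand: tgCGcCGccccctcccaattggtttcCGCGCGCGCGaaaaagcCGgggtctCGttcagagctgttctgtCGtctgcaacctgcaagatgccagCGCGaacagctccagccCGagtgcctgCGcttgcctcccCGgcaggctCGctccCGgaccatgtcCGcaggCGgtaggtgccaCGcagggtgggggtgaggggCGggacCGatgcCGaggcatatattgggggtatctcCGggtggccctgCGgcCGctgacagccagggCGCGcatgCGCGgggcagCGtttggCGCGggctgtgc
Tet3, chr6:83441629-83441928, minus strand: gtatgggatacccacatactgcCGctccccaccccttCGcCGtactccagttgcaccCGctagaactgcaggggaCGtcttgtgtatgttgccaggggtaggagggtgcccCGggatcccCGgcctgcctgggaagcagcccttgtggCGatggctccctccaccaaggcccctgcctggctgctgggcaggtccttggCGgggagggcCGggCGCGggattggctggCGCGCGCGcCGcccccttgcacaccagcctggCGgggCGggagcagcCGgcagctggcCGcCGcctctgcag
The Dnmt3b window held 30 CpG and the Dnmt3l window 6, against a median of 7 over all 32851 mouse promoter windows of this length. The windows of Uhrf1 and Dnmt1 shown held 33 each, a number reached by 8.56% of all windows, and that of Tet3 held 22. They are the densest of their genes: the other Uhrf1 window held 12, and the other Dnmt1 windows held 12 and 2. The other Dnmt3l windows held 4 and 3, so every Dnmt3l window lay below the median. Tet2 had the densest window of the 9 genes with 57 CpG, a number reached by 0.152% of all windows. These are counts of letters in the reference and say nothing of the methylation of these cells.

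The 8 libraries were of like depth, with 35911384 to 37286251 counts each, of which 4.27% to 5.18% fell on the 10 highest genes. Nr0b1 had 300 and 456 counts in the controls grown in 2i/LIF and none in either Dax1KO library there. In LIF/serum it had 4689 and 5095 counts in the control and 6 and 14 in Dax1KO, so the labels and the targeted gene went together. A list of 8 ESC markers summed to between 2012 and 2340 RPKM, reads per kilobase of exon scaled to library size, in every library. None of them was at 0, although some moved between media by the threshold defined below. In control cells 3 of the 8 were called higher and 1 lower in 2i/LIF, against 20.3% and 16.5% of all tested genes. In Dax1KO cells 2 were called higher and 3 lower, against 15.2% and 13.7%. Markers of other cells moved with the groups: 7 primitive endoderm markers summed to 7.81 to 9.95 RPKM in 2i/LIF, 32.7 to 44.3 in the control in LIF/serum and 76.0 to 90.8 in Dax1KO there. For 6 post-implantation epiblast markers the sums were 7.59 to 14.2 RPKM in 2i/LIF, with Fgf5 at 0, and 31.1 to 40.8 in LIF/serum. For 6 trophoblast markers the sums were 14.0 and 20.6 in the control in 2i/LIF, 40.6 and 43.6 in Dax1KO there with Cdx2 at 0 in both, 36.3 and 36.6 in the control in LIF/serum, and 51.1 and 63.0 in Dax1KO. In 2i/LIF the keratin gene Krt8 went from 6.40 and 12.7 RPKM in control to 24.5 and 28.7 in Dax1KO. Gata3 went the other way there, from 0.906 and 0.794 to 0.260 and 0.368. For 7 fibroblast markers the sums were 16.4 and 20.7 in control and 10.8 and 11.4 in Dax1KO in 2i/LIF, and 3.90 and 3.98 in control and 12.02 and 12.5 in Dax1KO in LIF/serum, with Col3a1, Postn and Lum at 0 in LIF/serum. Between genotypes in 2i/LIF only Thy1 was called, lower in Dax1KO, as were 1.65% of all tested genes. The median log2 fold change of the 5 markers tested there was 1.35, the other way. In bulk RNA of this kind, fewer cells of a type and less RNA per cell cannot be told apart.

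More of these genes were called between media than between genotypes. Dnmt1 and Uhrf1 were higher in 2i/LIF, and Dnmt3b and Dnmt3l were lower, in control and in Dax1KO cells alike. In control cells 6 of the 9 genes were called, 2 higher and 4 lower in 2i/LIF, where called means that edgeR's quasi-likelihood test gave an adjusted P no higher than 0.05 with a change of 1.2-fold or more. The same rule called 36.8% of all tested genes in that comparison, 20.3% higher and 16.5% lower. In Dax1KO cells 5 of the 9 were called, 2 higher and 3 lower, against 28.9% of all tested genes, 15.2% higher and 13.7% lower. The median log2 fold change of the 9 genes was -0.62 in control and -0.16 in Dax1KO cells, while that of all tested genes was 0.01 in both.

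**Figure D1:**
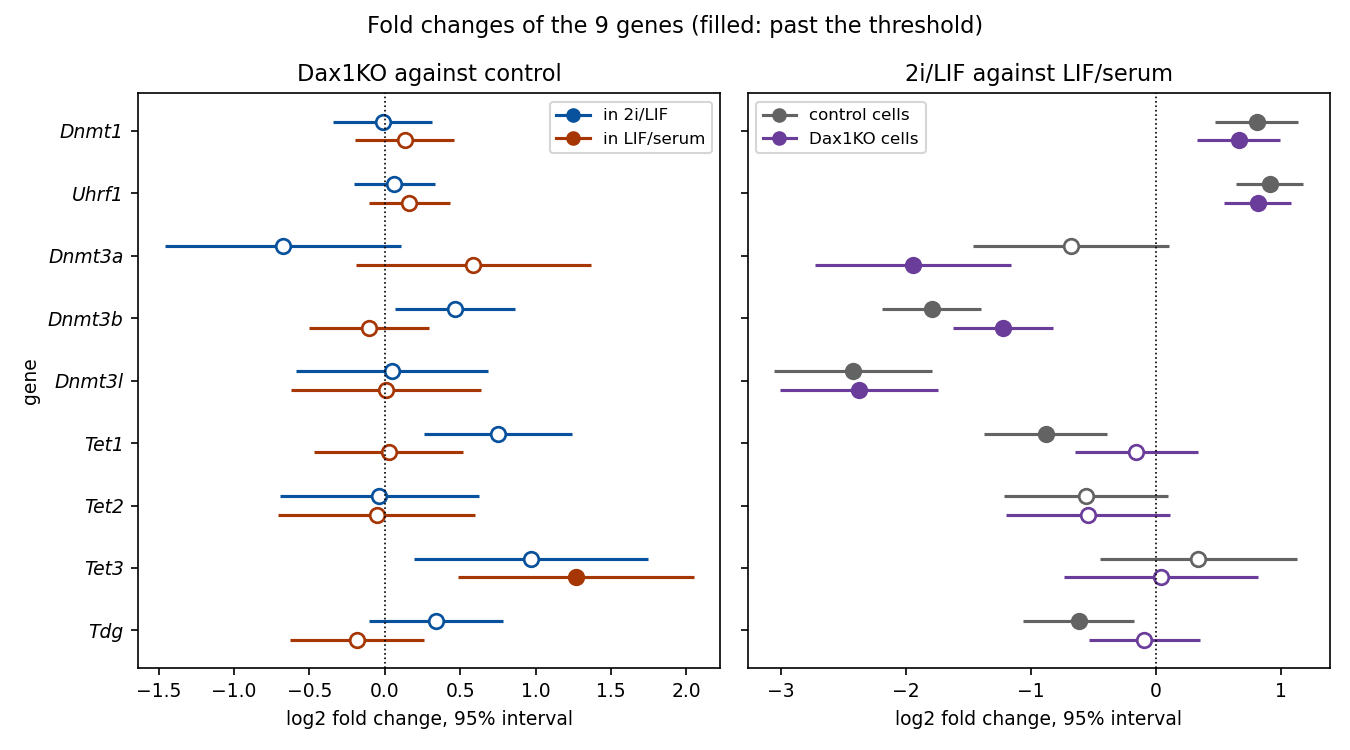
Log2 fold change (x axis) of each of the 9 genes (y axis) with its 95% interval, for Dax1KO against control in each medium (left) and for 2i/LIF against LIF/serum in each genotype (right). Filled points passed the threshold: Dnmt1 and Uhrf1 lie right of 0 and Dnmt3b and Dnmt3l left of 0 in both genotypes, and on the left only Tet3 in LIF/serum is filled.

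Dnmt1 (chr9:20907209-20959888, minus strand), the maintenance methyltransferase, had 17158 and 18132 counts in control and 17198 and 18697 in Dax1KO libraries in 2i/LIF. Its counts in LIF/serum were 10580 and 8441 counts in control and 12674 and 10278 in Dax1KO. All 4 libraries in 2i/LIF thus lay above all 4 in LIF/serum. The difference was 1.75-fold in control cells (95% interval 1.39 to 2.20, adjusted P = 0.00355) and 1.58-fold in Dax1KO cells (1.26 to 1.99, adjusted P = 0.0113). In Dax1KO cells the call was lost without replicate 2 of either medium (adjusted P = 0.0834 without the 2i/LIF library and 0.0769 without the LIF/serum library).

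Uhrf1 (chr17:56303321-56323486, plus strand), the partner that recognizes hemimethylated DNA, followed Dnmt1. Its counts were 21374 and 22473 in control and 22657 and 24424 in Dax1KO libraries in 2i/LIF, against 11708 and 10267 in control and 14560 and 12521 in Dax1KO in LIF/serum. Again no library of one medium reached the range of the other. Uhrf1 rose 1.88-fold in 2i/LIF in control cells (95% interval 1.56 to 2.26, adjusted P = 0.000760) and 1.76-fold in Dax1KO cells (1.46 to 2.11, adjusted P = 0.00177). Per length, Uhrf1 stood at 1.92 to 2.28 times Dnmt1 in each of the 8 libraries. Of its longest transcript, 44.3% matches the pseudogene Gm5648, which had only 58 to 165 counts.

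Dnmt3l (chr10:78041947-78063622, plus strand), the cofactor without catalytic activity, showed the largest difference between media among the 9 genes. It had 2052 and 4075 counts in control and 3557 and 2951 in Dax1KO libraries in 2i/LIF. Its counts in LIF/serum were 14359 and 16458 in control and 16345 and 17713 in Dax1KO. The media did not overlap, although the control libraries in 2i/LIF differed from each other by a ratio of 1.98. Dnmt3l was 5.34-fold lower in 2i/LIF in control cells (log2 fold change -2.42, 95% interval -3.05 to -1.79, adjusted P = 0.000541) and 5.19-fold lower in Dax1KO cells (-2.37, -3.01 to -1.74, adjusted P = 0.000789). In control cells the log2 fold change was -2.003 without replicate 1 in 2i/LIF and -3.04 without replicate 2 there. The gene overlaps Aire on the opposite strand over 2.24% of its exons, Aire had 107 to 2974 counts, and no source states whether the counting used strand.

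Dnmt3b (chr2:153649450-153687730, plus strand), a de novo methyltransferase, moved the same way. Its counts were 3014 and 3076 in control and 4788 and 3864 in Dax1KO libraries in 2i/LIF, and 11510 and 8375 in control and 11036 and 9343 in Dax1KO in LIF/serum. Every LIF/serum library exceeded every 2i/LIF library. The gene was 3.47-fold lower in 2i/LIF in control cells (log2 fold change -1.79, 95% interval -2.19 to -1.40, adjusted P = 0.000230) and 2.33-fold lower in Dax1KO cells (-1.22, -1.62 to -0.83, adjusted P = 0.00170). The sum of the post-implantation epiblast markers was also lower in 2i/LIF, with Dusp6 moving most in RPKM, as given above. The part of these markers in the difference of Dnmt3b was not tested.

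Dnmt3a (chr12:3806007-3914443, plus strand), the other de novo enzyme, was more variable. It had 1700 and 2059 counts in control and 1478 and 941 in Dax1KO libraries in 2i/LIF, and 2893 and 2769 in control and 6458 and 2947 in Dax1KO in LIF/serum. The lowest 2 values were both Dax1KO libraries in 2i/LIF, and 1 Dax1KO library in LIF/serum stood 2.15 times above its replicate on the normalized scale. In Dax1KO cells Dnmt3a was 3.84-fold lower in 2i/LIF (log2 fold change -1.94, 95% interval -2.72 to -1.16, adjusted P = 0.00495), and -1.29 without replicate 1 in LIF/serum, the highest library. In control cells it was not called, at -0.68 (95% interval -1.46 to 0.10, adjusted P = 0.156), although the libraries did not overlap, and a separate fit of these 4 libraries called it (-0.69, adjusted P = 0.0179). The difference between these medium effects, 1.26 on the log2 scale (0.16 to 2.37), was not called (adjusted P = 0.207) and was 0.61 without that library.

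**Figure D2:**
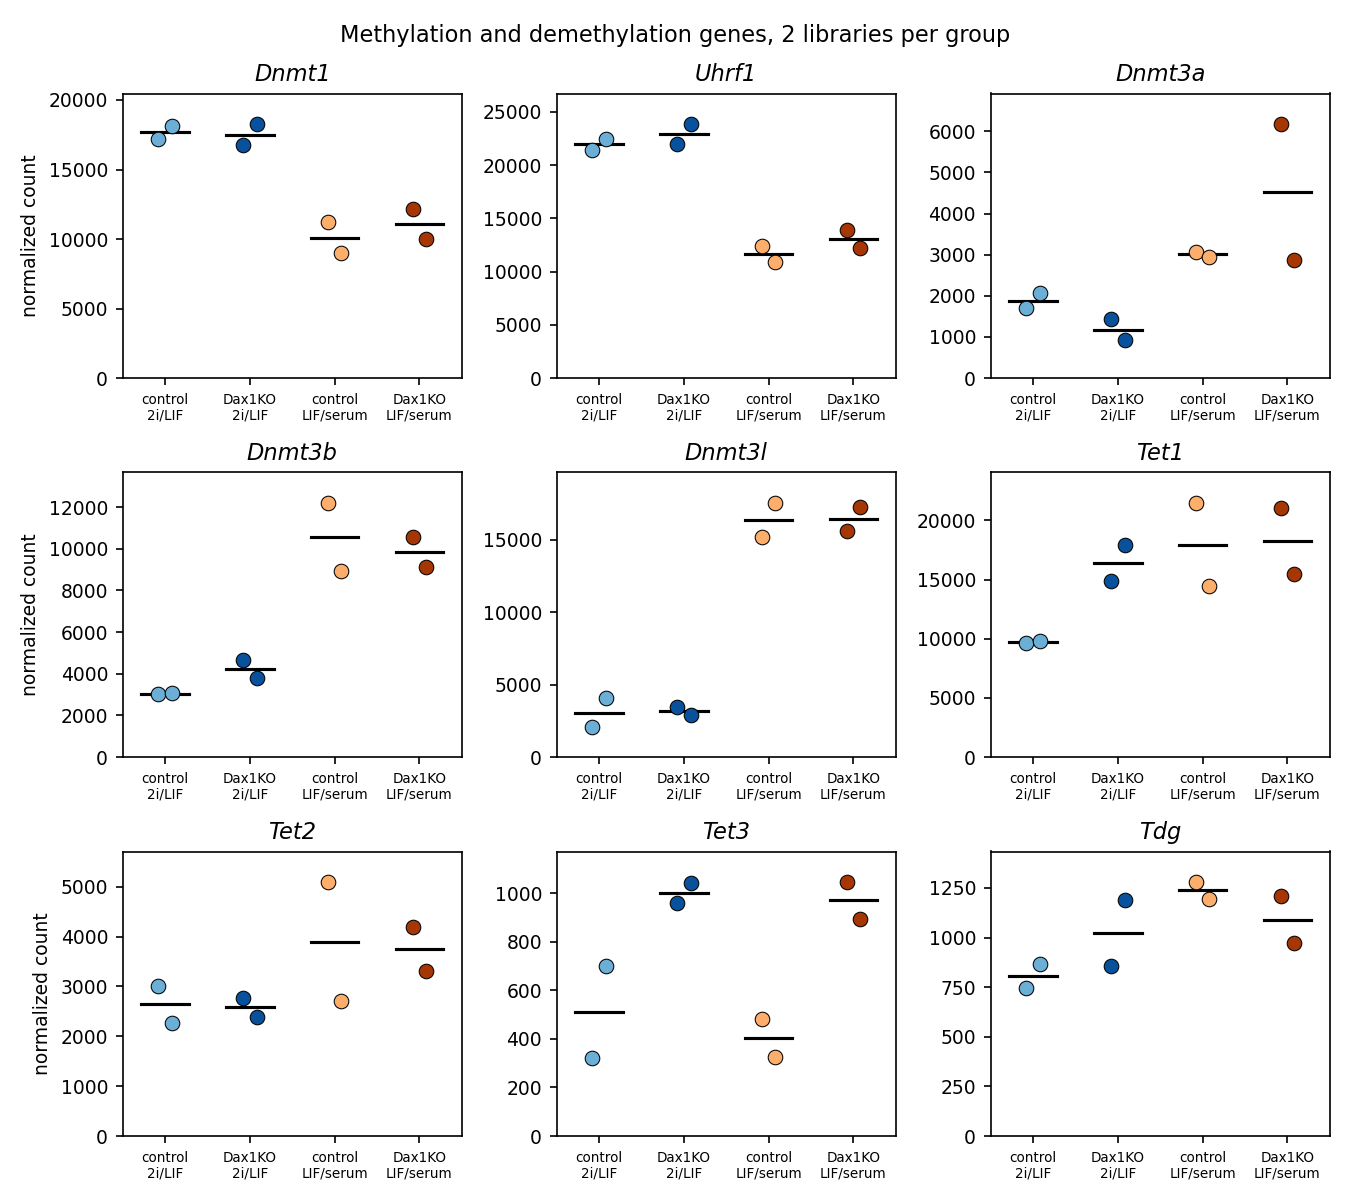
Normalized count (y axis, linear from 0) of each of the 9 genes in the 8 libraries (points), by group (x axis), with the group mean as a line. Dnmt1 and Uhrf1 are high in the 2i/LIF groups, Dnmt3b and Dnmt3l are high in the LIF/serum groups, and Tet3 is high in the Dax1KO groups of both media.

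Tet1 (chr10:62804570-62908996, minus strand), the main 5-methylcytosine oxidase of ESCs, had 9635 and 9838 counts in the control in 2i/LIF and 15295 and 18327 in Dax1KO there. In LIF/serum it had 20255 and 13519 counts in control and 22018 and 15847 in Dax1KO. The control libraries in 2i/LIF were the lowest 2 of the 8. In control cells Tet1 was 1.84-fold lower in 2i/LIF (log2 fold change -0.88, 95% interval -1.37 to -0.39, adjusted P = 0.0142), and in Dax1KO cells the value was -0.16 (-0.65 to 0.34, adjusted P = 0.635). The call in control cells was lost without replicate 1 of either medium or replicate 2 in 2i/LIF, with adjusted P of 0.0613 to 0.0727 and a log2 fold change of -0.56 without replicate 1 in LIF/serum.

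Tet2 (chr3:133463679-133545139, minus strand) had 3011 and 2269 counts in control and 2841 and 2453 in Dax1KO libraries in 2i/LIF, and 4806 and 2536 in control and 4393 and 3396 in Dax1KO in LIF/serum. The control groups of the media overlapped. It was called in neither genotype, with log2 fold changes of -0.56 (95% interval -1.22 to 0.10, adjusted P = 0.161) and -0.54 (-1.20 to 0.11, adjusted P = 0.199). Without replicate 2 of the control in LIF/serum the value in control cells was -0.97, and over all the alternative fits it ranged from -0.97 to -0.03. In Dax1KO cells Tet2 was called by a separate fit (-0.56, adjusted P = 0.0371).

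Libraries of a group also differed from each other by transcript length. Among the 870 tested genes whose longest transcript is 8 kb or longer, replicate 1 of the control in LIF/serum exceeded replicate 2 by a median of 0.36 on the log2 scale, against -0.18 for the 7413 genes under 2 kb. In Dax1KO in LIF/serum the same medians were 0.13 and -0.08, and in 2i/LIF they were 0.03 and 0.00 in control and -0.09 and 0.00 in Dax1KO. The longest transcripts of Tet1, Tet2, Tet3 and Dnmt3a measure 14369, 9179, 10904 and 9685 bases. Among the 2549 genes of 5 to 8 kb, replicate 1 exceeded replicate 2 in LIF/serum by a median of 0.23 in control and 0.08 in Dax1KO. Dnmt1 falls in this class, with a longest transcript of 5870 bases. Over the genes of 8 kb or longer the median log2 fold change of 2i/LIF against LIF/serum was 0.14 in control and 0.17 in Dax1KO cells. Over those of 5 to 8 kb it was 0.14 and 0.10. The part of length in the values of the Tet genes, Dnmt3a and Dnmt1 was not tested.

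Tdg (chr10:82629828-82650799, plus strand), the glycosylase for oxidized methylcytosine, had 745 and 866 counts in control and 883 and 1214 in Dax1KO libraries in 2i/LIF, and 1207 and 1121 in control and 1262 and 997 in Dax1KO in LIF/serum. The control groups were separate and the Dax1KO groups overlapped. Tdg was 1.53-fold lower in 2i/LIF in control cells (log2 fold change -0.62, 95% interval -1.06 to -0.17, adjusted P = 0.0380), and in Dax1KO cells the value was -0.09 (-0.54 to 0.35, adjusted P = 0.764). The call in control cells was lost without a filter on low counts (adjusted P = 0.0822) and without any 1 of the 4 control libraries (adjusted P from 0.0692 to 0.178). Counts of Tdg are uncertain: 84.8% of its longest transcript matches Tdg-ps, which had 141 to 263 counts, and 34.1% matches Gm9855, which had 791 to 1493. Summing Tdg with these copies and with Gm5597, a choice made after the values were seen, gave -0.61 in control cells (adjusted P = 0.0240) and -0.26 in Dax1KO cells (adjusted P = 0.292).

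Levels of different genes were compared per length, as RPKM over merged exons. In control cells in 2i/LIF the order was Uhrf1 (140.3 ± 4.73, SD, n = 2), Dnmt1 (65.2 ± 2.43), Dnmt3l (27.9 ± 13.0), Tet1 (17.2 ± 0.223), Dnmt3b (16.3 ± 0.206), Tet2 (4.27 ± 0.855), Tdg (4.09 ± 0.427), Dnmt3a (3.08 ± 0.410) and Tet3 (0.831 ± 0.434). Only Tet2 and Tdg had overlapping ranges, and with lengths of the longest transcript Dnmt3b stood above Tet1. In Dax1KO cells in 2i/LIF the order was the same at the top, but Tet1 (28.9 ± 3.78) overlapped Dnmt3l (28.9 ± 3.71), Tet2 overlapped Tdg and Tet3 overlapped Dnmt3a.

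In LIF/serum the order changed at the top. Dnmt3l led at 149.3 ± 15.0 RPKM in control cells, followed by Uhrf1 (74.7 ± 6.61), Dnmt3b (56.3 ± 12.3), Dnmt1 (33.2 and 41.4 in its 2 libraries) and Tet1 (31.6 ± 8.78), with only the last pair overlapping. Tet2 (6.29 ± 2.73), Tdg (6.27 ± 0.301) and Dnmt3a (4.92 ± 0.132) came next, with the range of Tet2 overlapping those of Tdg and Dnmt3a, and Tet3 (0.657 ± 0.179) was lowest. In Dax1KO cells the first 5 kept this order, from Dnmt3l at 149.9 ± 10.5 to Tet1 at 32.1 ± 6.99, with the ranges of Dnmt1 and Tet1 again overlapping. There Dnmt3a (7.40 ± 3.82), Tet2 (6.06 ± 1.02) and Tdg (5.52 ± 0.842) could not be ranked beyond their spread, and Tet3 had the lowest mean in each of the 4 groups.

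**Figure D3:**
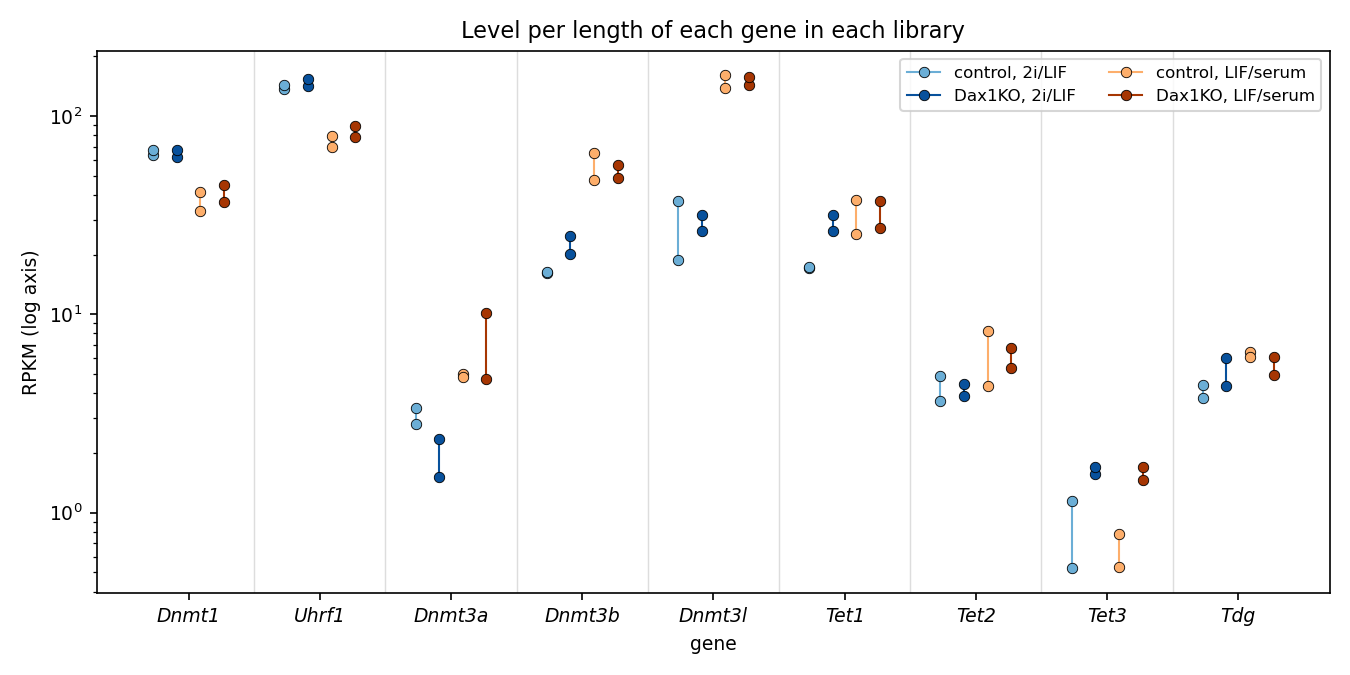
RPKM (y axis, log scale) of each of the 9 genes (x axis) in every library, with the 2 libraries of a group joined by a line. Dnmt3l moves from below Dnmt1 and Uhrf1 in 2i/LIF to above both in LIF/serum, and Tet3 has the lowest mean in each group.

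Within the de novo group, Dnmt3l made up 49.8% to 65.3% of the summed RPKM of Dnmt3a, Dnmt3b and Dnmt3l in 2i/LIF and 66.4% to 75.3% in LIF/serum. Dnmt3a held 2.23% to 7.41%. The summed RPKM of the group stood at 0.593 to 0.951 times that of Dnmt1 in the 4 libraries in 2i/LIF and at 4.67 to 6.39 times in the 4 in LIF/serum. With lengths of the longest transcript the ratio in 2i/LIF was 0.684 to 1.10, above 1 in 2 libraries, and in LIF/serum it was 5.65 to 7.83. Without Dnmt3l, the ratio over merged exons was 0.295 to 0.440 in 2i/LIF and 1.44 to 1.69 in LIF/serum. The media were thus separate on both ratios, while control and Dax1KO overlapped within each medium on the first. On the second, control stood at 0.295 and 0.298 against 0.321 and 0.440 in Dax1KO in 2i/LIF, and at 1.58 and 1.69 against 1.44 and 1.48 in LIF/serum, so the genotypes were separate in both media and in opposite directions. Tet1 made up 75.9% to 85.0% of the summed RPKM of the Tet genes in every library. These shares and ratios are descriptions and were not tested.

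**Figure D4:**
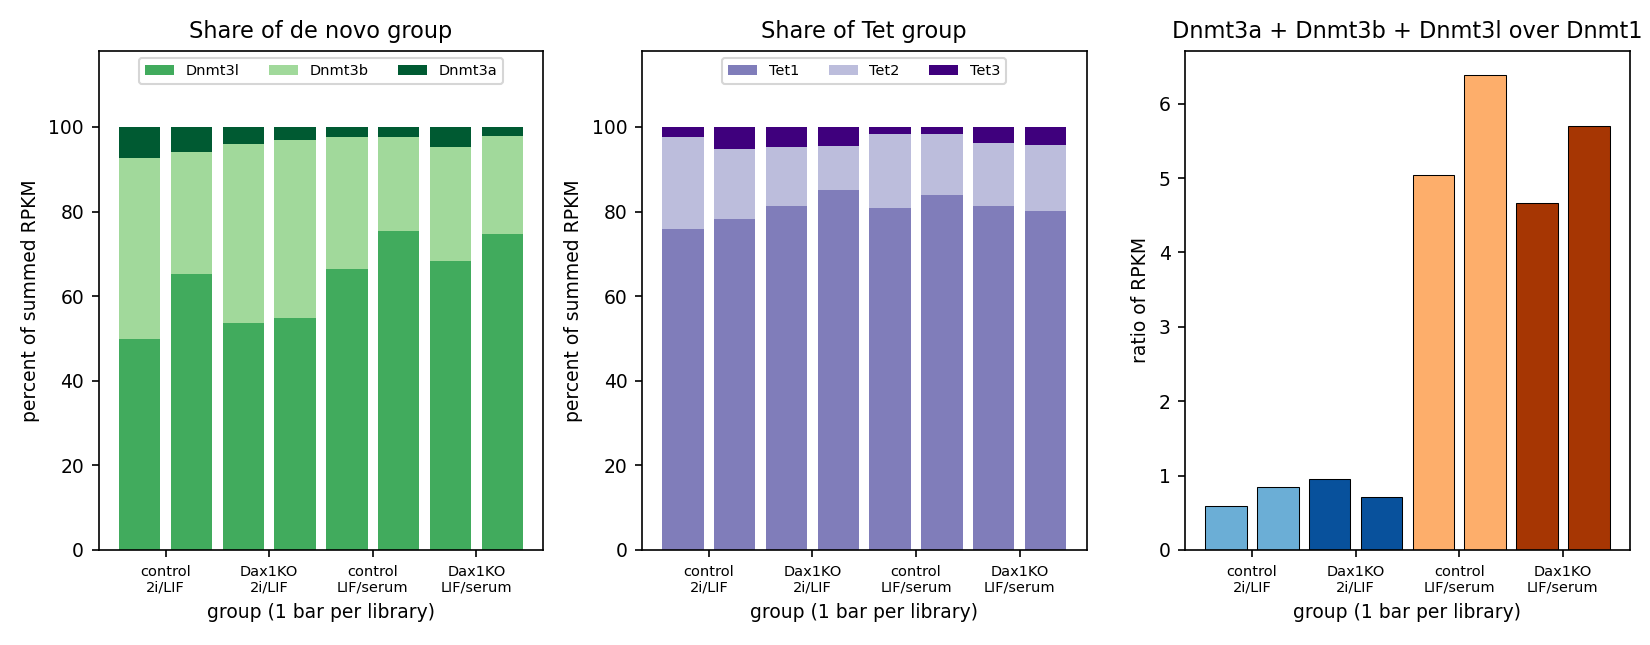
Share of the summed RPKM (percent, y axis) of Dnmt3a, Dnmt3b and Dnmt3l (left) and of Tet1, Tet2 and Tet3 (middle), and the ratio of the summed de novo genes to Dnmt1 (right), with 1 bar per library. The ratio, over merged exons, lies between 0.593 and 0.951 in the 4 libraries in 2i/LIF and between 4.67 and 6.39 in the 4 in LIF/serum, and Tet1 fills most of each Tet bar.

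Between Dax1KO and control cells only Tet3 in LIF/serum was called, 2.41-fold higher in Dax1KO. In 2i/LIF none of the 9 was called by edgeR's quasi-likelihood test, where 3.16% of all tested genes were called, 1.51% higher and 1.65% lower in Dax1KO. At an unadjusted P under 0.05, 3 of the 9 (Tet1, Tet3 and Dnmt3b, all higher in Dax1KO) passed in 2i/LIF, as did 17.9% of all tested genes, and DESeq2 called 1, Tet1. In LIF/serum 1 of the 9 was called against 14.7% of all tested genes, 8.87% higher and 5.78% lower, so neither count stands apart from the share over all genes. The genotype comparison in a medium and the medium comparison in a genotype share 1 group of libraries, so a library that stands apart moves both.

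Tet3 (chr6:83362373-83459084, minus strand), the least abundant of the Tet genes, had 321 and 698 counts in control and 985 and 1064 in Dax1KO libraries in 2i/LIF, and 453 and 305 in control and 1093 and 918 in Dax1KO in LIF/serum. All 4 Dax1KO libraries lay above all 4 control libraries. The log2 fold change was 1.27 in LIF/serum (SE 0.34, 95% interval 0.49 to 2.05, adjusted P = 0.0446) and 0.97 in 2i/LIF (SE 0.34, 0.19 to 1.75, adjusted P = 0.184). In 2i/LIF it was 0.52 without replicate 1 of the control and 1.65 without replicate 2. The call in LIF/serum was lost without a filter on low counts (adjusted P = 0.109), without any 1 of the 4 LIF/serum libraries and without either Dax1KO library in 2i/LIF (adjusted P from 0.0710 to 0.198), with log2 fold changes of 1.00 to 1.58. Tet3 lies on chromosome 6, and the median log2 fold change of the 1054 genes tested on that chromosome was 0.44 (2i/LIF) and 0.52 (LIF/serum), against -0.03 and -0.00 for all others. Of these genes 9.87% in 2i/LIF and 28.3% in LIF/serum were called higher in Dax1KO. Tet3 exceeded the chromosome's median by 0.53 and 0.75, and 16.7% and 15.7% of the chromosome's genes lay at or above it. The part of the chromosome-wide difference in the value of Tet3 was not tested.

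Tet1 in 2i/LIF was the other gene whose call depended on the fit. Both Dax1KO libraries exceeded both controls, and the log2 fold change was 0.75 (SE 0.21, 95% interval 0.26 to 1.24, adjusted P = 0.113). DESeq2 and a separate fit of the 4 libraries called it (adjusted P = 0.0133 and 0.0388). In LIF/serum the value was 0.02 (-0.47 to 0.52, adjusted P = 0.962). Dnmt3b in 2i/LIF was likewise separate, at 0.47 (0.07 to 0.87, adjusted P = 0.206), and -0.10 in LIF/serum (-0.50 to 0.29).

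Dnmt3a had a log2 fold change in 2i/LIF of -0.68 (95% interval -1.46 to 0.11, adjusted P = 0.360) and 0.59 in LIF/serum (-0.19 to 1.37, adjusted P = 0.282). The value in LIF/serum came from 1 library: without replicate 1 of Dax1KO it was -0.06. For Dnmt1, Uhrf1, Dnmt3l and Tet2 the log2 fold changes lay between -0.05 and 0.16 in both media. Their intervals in 2i/LIF reached from -0.34 to 0.32 for Dnmt1 and from -0.20 to 0.33 for Uhrf1. For Dnmt3l they reached from -0.59 to 0.68 there, and for Tet2 from -0.69 to 0.62. In LIF/serum the intervals were -0.20 to 0.46 for Dnmt1 and -0.11 to 0.43 for Uhrf1. Those of Dnmt3l and Tet2 were -0.62 to 0.64 and -0.71 to 0.60. The intervals do not exclude differences within these bounds. They are not limits of detection, since Tet3 in 2i/LIF had an interval above 0 and was not called. Tdg was at 0.34 in 2i/LIF (-0.10 to 0.79) and -0.18 in LIF/serum (-0.63 to 0.26).

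None of the 9 genes was called for a difference of the Dax1KO effect between LIF/serum and 2i/LIF, where edgeR's quasi-likelihood test called 2.87% of all tested genes at an adjusted P of at most 0.05. DESeq2 called none either, and 3 of the 9 had an unadjusted P under 0.05, as did 19.13% of all tested genes. These were Dnmt3a at 1.26, Tet1 at -0.72 (95% interval -1.42 to -0.03, adjusted P = 0.242) and Dnmt3b at -0.57 (-1.13 to -0.01, adjusted P = 0.253), where a negative value means a smaller or more negative Dax1KO effect in LIF/serum. For Tet3 the difference was 0.30 (-0.80 to 1.40), so the call in LIF/serum alone does not set the media apart.

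The genes around the pathway were read from 5 lists. The first held 16 partners of maintenance and of targeting to chromatin. In control cells 3 were higher and 2 lower in 2i/LIF, and in Dax1KO cells also 3 and 2, near the 36.8% and 28.9% called over all tested genes, with list medians of 0.02 and 0.17. Dppa3, a maternal factor on chromosome 6 that keeps Uhrf1 off chromatin, had 2491 to 3790 counts in control and 6220 to 7905 in Dax1KO libraries in 2i/LIF, but 307 to 566 and 199 to 284 in LIF/serum. It rose 6.77-fold in 2i/LIF in control (adjusted P = 0.000636) and 29.5-fold in Dax1KO cells (adjusted P = 0.000103). Its Dax1KO log2 fold changes were 1.13 in 2i/LIF (adjusted P = 0.108) and -0.99 in LIF/serum (adjusted P = 0.0890), and the difference between them, -2.12, missed the threshold (adjusted P = 0.0567).

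Prdm14, a repressor of the de novo methyltransferases in ESCs, rose 3.49-fold in 2i/LIF in control and 2.08-fold in Dax1KO cells (adjusted P = 0.000214 and 0.00317). It was the only gene of this list called between genotypes in 2i/LIF, 1.82-fold lower in Dax1KO (adjusted P = 0.0412). Ehmt2, a histone H3K9 methyltransferase, fell by 0.72 and 0.69 on the log2 scale in 2i/LIF. In LIF/serum 3 genes of the list were lower and none higher in Dax1KO, where 5.78% and 8.87% of all tested genes were: Hells (-0.64), a chromatin remodeller, Usp7 (-0.56), a deubiquitinase that binds Dnmt1 and Uhrf1, and Pcna (-0.42), the replication clamp.

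Of 10 genes of methyl donor supply, 2 were higher and 3 lower in 2i/LIF in control cells (all tested genes: 20.3% and 16.5%), and 2 and 4 in Dax1KO cells (15.2% and 13.7%). The list medians were 0.01 and 0.10. Ahcy, which clears S-adenosylhomocysteine, rose 1.78-fold and 1.32-fold in 2i/LIF, and it was 1.38-fold lower in Dax1KO in 2i/LIF (adjusted P = 0.0417). Mat2b and Shmt2 fell in 2i/LIF in both genotypes, by 0.94 and 0.75 on the log2 scale in control cells. Gnmt, a glycine methyltransferase that uses up S-adenosylmethionine, had 332 to 398 counts in Dax1KO in LIF/serum and 78 to 109 in the other 3 groups, a log2 fold change of 1.80 between genotypes (adjusted P = 0.00798). Nnmt was called higher in 2i/LIF, but it had only 6 to 21 counts there and none in LIF/serum.

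The list of 19 oxidation and base excision partners had 6 genes higher and 5 lower in 2i/LIF in control cells, and 3 and 5 in Dax1KO cells, against 36.8% and 28.9% of all tested genes called in either direction. The list medians were -0.06 and -0.05. Hmces, a binder of abasic sites, was 4.31-fold and 3.61-fold lower in 2i/LIF. Neil3, a DNA glycosylase, rose 3.33-fold and 2.17-fold, and Idh1, which makes the 2-oxoglutarate that Tet enzymes need, rose 3.01-fold and 1.49-fold. Between genotypes 1 gene was higher and 1 lower in 2i/LIF, where 1.51% and 1.65% of all tested genes were, and 5 and 2 in LIF/serum, against 8.87% and 5.78%. Apex1, the abasic site endonuclease, fell in Dax1KO in both media, 1.61-fold and 1.79-fold (adjusted P = 0.0325 and 0.00665). Mbd4, a glycosylase that lies on chromosome 6, rose 1.67-fold and 1.75-fold (adjusted P = 0.0354 and 0.0103), and the part of the chromosome-wide difference in it was not tested. Neil2 (1.76-fold), Smug1 (1.58-fold) and Parp1 (1.27-fold) rose in LIF/serum. Cxxc5 was called lower there, with 2076 and 2391 counts in control and 1508 and 1593 in Dax1KO.

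Among 7 methyl-CpG readers only Mbd3, a subunit of the NuRD complex, was called, lower in 2i/LIF by 1.03 on the log2 scale in control (adjusted P = 0.00249) and by 0.77 in Dax1KO cells (adjusted P = 0.0121). Over all tested genes 36.8% were called between media in control and 28.9% in Dax1KO cells. None of the 7 was called between genotypes by edgeR's quasi-likelihood test, against 3.16% of all tested genes in 2i/LIF and 14.7% in LIF/serum. There 0 of the 7 in 2i/LIF and 1 in LIF/serum had an unadjusted P under 0.05, against 17.9% and 30.7% of all tested genes. DESeq2 called 0 and 1 of the 7.

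**Figure D5:**
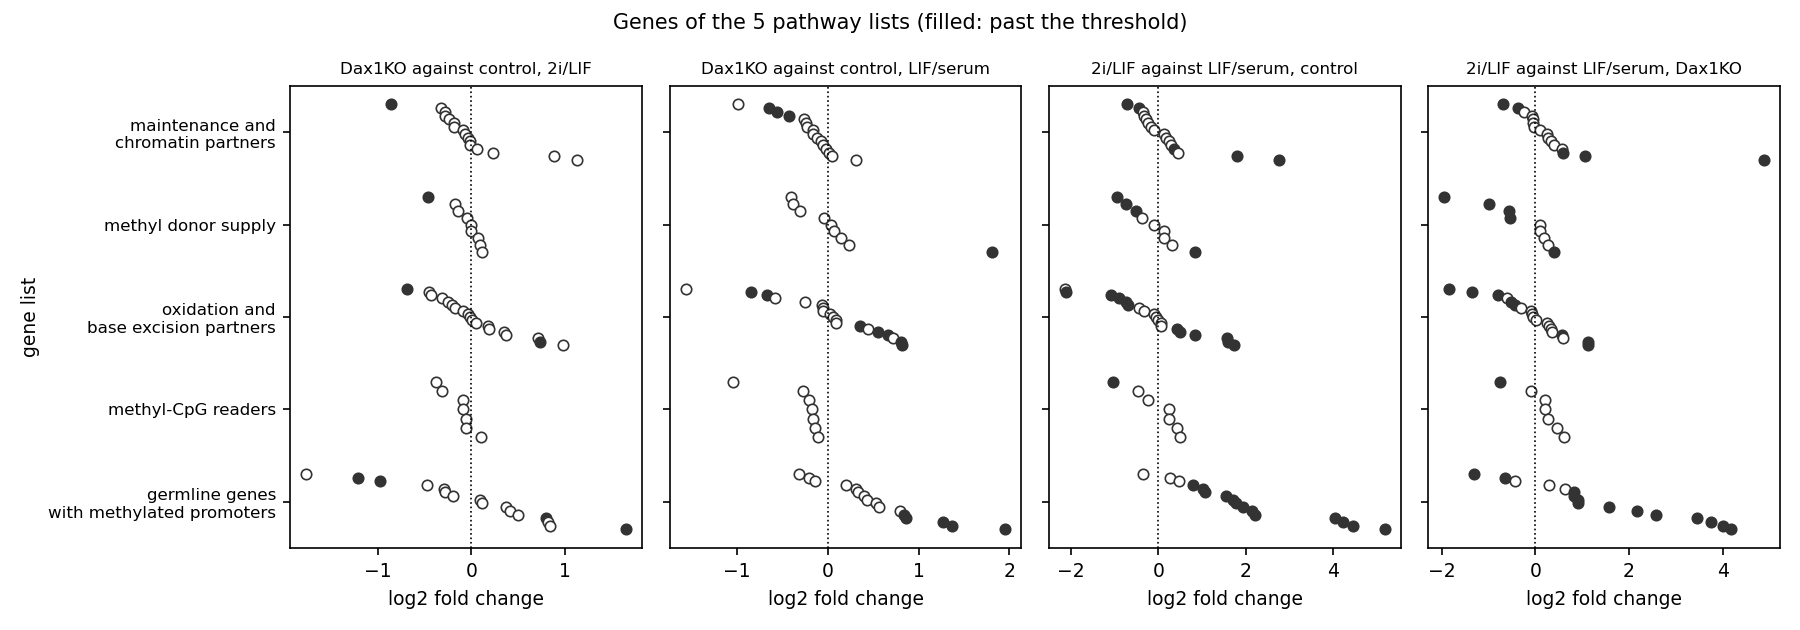
Log2 fold change (x axis, scaled by panel) of the genes of 5 lists (y axis) in the 4 comparisons, 1 point per gene, without Nnmt, and filled where the gene passed the threshold. Most germline genes lie right of 0 in both comparisons of media, where Dazl reaches 5.17 in control cells.

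Germline genes whose promoters are known to be methylated in somatic cells gave the largest median difference of the 5 lists between media. Of 16, 13 were higher and none lower in 2i/LIF in control cells, and 11 were higher and 2 (Mael and Ddx4) lower in Dax1KO cells. Over all tested genes 20.3% and 16.5% were called higher and lower in control, and 15.2% and 13.7% in Dax1KO cells. The list medians were 1.74 and 0.91 on the log2 scale. Dazl, an RNA-binding protein of germ cells, had 25840 to 31177 counts in 2i/LIF over both genotypes, against 605 to 827 in control and 1700 to 2105 in Dax1KO in LIF/serum. It was 36.0-fold higher in 2i/LIF in control and 16.2-fold higher in Dax1KO cells. Brdt, Slc25a31 and Asz1, genes of spermatogenesis, were 21.9-fold, 18.6-fold and 16.4-fold higher in control cells.

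Between genotypes, 2 of the 16 germline genes were higher (Asz1 and Taf7l) and 2 lower (Mael and Tex11) in Dax1KO in 2i/LIF, against 1.51% and 1.65% of all tested genes. In LIF/serum 5 were higher (Asz1, Brdt, Dazl, Taf7l and Mov10l1) and none lower, against 8.87% and 5.78%, with a list median of 0.48 against 0.01 for all tested genes. Asz1, which lies on chromosome 6, had 41 to 83 counts in control and 230 to 299 in Dax1KO in LIF/serum and rose 3.88-fold (adjusted P = 0.0142), after 3.16-fold in 2i/LIF (adjusted P = 0.0401). Dazl rose 2.42-fold in LIF/serum (adjusted P = 0.00510). The primitive endoderm markers rose in the same comparison, with 5 of 7 called higher, and their part in these values was not tested.

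For 3 of the genes, those most alike over the 8 libraries were sought by the root mean square difference of log2 CPM, counts scaled to library size, each centred on its own mean. Nearest to Dnmt3b were Cacng7 (0.13), Casd1 (0.14) and Plxnb1 (0.14). Nearest to Dnmt3l were Lgals9 (0.22), Hfe2 (0.23) and Slc7a7 (0.23), and nearest to Tet2 were Tpp1 (0.12), Chd8 (0.12) and Tmtc3 (0.13). The 8 libraries share their medium and genotype in groups, and differences between the 2 libraries of a group also enter the measure. Closeness here thus describes the pattern over the 8 libraries and not over the 4 groups alone.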

How the data were processed

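Control and Dax1KO ESCs were sequenced in 2i/LIF and LIF/serum, with 2 libraries per group, assigned by the sample titles. The authors deposited whole-number counts per gene and library, without normalization. The submitters' processing notes name HISAT2 2.0.4, DESeq2 and the genome build mm10, and the counting tool, annotation and strand setting are not given in the sources used here. Of the 52550 Ensembl identifiers, 52403 were found in GENCODE M21 (GRCm38, the same build), which gave symbols, coordinates and lengths.

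The filterByExpr step of edgeR 4.0.16 (R 4.3.3) kept 20749 genes, TMM gave the library scaling, and the quasi-likelihood fit had 1 mean per group. P values were adjusted by Benjamini-Hochberg over all tested genes. SE and 95% intervals came from the same fit. Normalized counts are counts over the scaled library size times its mean, and RPKM were computed here from merged exons. The steps were tested on simulated data. Near copies were sought with blastn 2.17.0 (identity of at least 95%).

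The members and the gene lists were chosen with earlier results of these data known. Every member is named, and up to 4 genes of each list with the largest called changes, with a few further called genes chosen after their values were seen. The alternatives were DESeq2 1.42.0, RLE factors, no filter, at least 10 counts in every library, a replicate block, separate fits, lengths of the longest transcript, and each library left out.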

Additional observations from a re-analysis of the deposited data

Results flagged for a closer look

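None of the 9 members was called for a difference of its Dax1KO effect between media, and 5 of the 68 genes of the surrounding lists were (7.35%, against 2.87% of all tested genes), by the interaction term of edgeR's quasi-likelihood test. Idh1, the cytosolic isocitrate dehydrogenase, was at -0.45 in 2i/LIF and at 0.56 in LIF/serum on the log2 scale (Dax1KO against control), a difference of 1.01 (adjusted P = 0.0166). In 2i/LIF it had 12450 and 12813 counts in control and 9245 and 9706 in Dax1KO libraries, and in LIF/serum 3820 to 4084 and 6386 to 6424, so that the genotypes were separate in both media and in opposite directions.

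The other 4 are germline genes. Mael moved from -1.21 in 2i/LIF to 0.56 in LIF/serum, a difference of 1.77 (adjusted P = 0.0373), and Tex11 from -0.98 to 0.33, a difference of 1.31 (adjusted P = 0.0359). Dazl was at 0.12 and 1.27, a difference of 1.15 (adjusted P = 0.0482). Mov10l1 was at -0.19 and 0.84, a difference of 1.04 (adjusted P = 0.0442). All 5 differences were positive.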

How the results depend on the processing

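In control cells 4 to 6 and in Dax1KO cells 4 or 5 members were called between media with 1 library left out. Between genotypes in 2i/LIF the count of members called rose from 0 to 1 with DESeq2 and to 1 with a separate fit. In LIF/serum it fell from 1 to 0 without a filter on low counts, to 0 with the replicate block (Tet3, 1.26, adjusted P = 0.0613), and lay between 0 and 1 with 1 library left out. The block turned the uncalled difference of the Dax1KO effect of Tet2 from -0.019 to 0.0094 and changed no other call. Same-numbered libraries had correlations of deviations of -0.015 to 0.108, and no source says that the numbers pair them.

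Signs turned only for members that were not called. Dnmt3l in LIF/serum between genotypes was -0.0039 with DESeq2 and with RLE factors, -0.014 with at least 10 counts and -0.011 in a separate fit. With 1 library left out, log2 fold changes between genotypes in 2i/LIF ranged from -0.079 to 0.048 for Dnmt1, -0.36 to 0.64 for Dnmt3l and -0.21 to 0.185 for Tet2. In LIF/serum they ranged from -0.030 to 0.30 for Dnmt1, -0.065 to 1.04 for Dnmt3a, -0.32 to 0.14 for Dnmt3b, -0.093 to 0.10 for Dnmt3l, -0.25 to 0.34 for Tet1 and -0.45 to 0.47 for Tet2. Between media they ranged from -0.37 to 0.80 for Tet3 in control cells, and in Dax1KO cells from -0.36 to 0.086 for Tet1, -0.065 to 0.16 for Tet3 and -0.34 to 0.12 for Tdg. For the difference of the Dax1KO effect they ranged from -0.013 to 0.31 for Dnmt1, -0.65 to 0.37 for Dnmt3l, -0.42 to 0.51 for Tet2 and -0.39 to 0.75 for Tet3.

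Over all tested genes, the count called between genotypes in 2i/LIF was 656, but 1441 with DESeq2, 121 without a filter and 38 to 673 with 1 library left out. In LIF/serum it was 3041, but 1842 without a filter, 1743 in a separate fit and 728 to 2496 with 1 library left out. For the difference of the Dax1KO effect between media it was 596, but 1510 with DESeq2, 119 without a filter and 36 to 344 with 1 library left out. In control and Dax1KO cells 5057 to 7120 and 2986 to 6286 genes were called between media with 1 library left out, of 7641 and 5999. RLE factors moved none of the RPKM values by more than their SD, and lengths of the longest transcript moved 32 of 36. The causes were not tested. Each group had 2 libraries, and depth was not varied.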
